A study of Mus musculus with 36 samples.

Results

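Genes of stratified squamous epithelium were followed array by array in mouse colon RNA. The 10 listed genes were Krt5, Krt14, Krt15, Krt13, Krt4, Krt6a, Trp63, Sprr3, Dsg3 and Mal, and 9 of them had a named probe set among the 17097 genes measured. Dsg3 was not analysed here. The genes had been chosen because their intensities differed widely between arrays of this series, so their levels are described and not tested, and each gene is represented by its probe set with the highest mean over the 36 arrays.

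The study compared wild-type (WT) mice with mice lacking IL-17RC (KO), the receptor subunit that pairs with IL-17RA to bind IL-17A and IL-17F, in a model of colitis-associated colon cancer. Mice were 6 to 8 weeks old. They were left untreated or entered a protocol of azoxymethane (AOM), a carcinogen, and then 3 cycles of dextran sulfate sodium (DSS). DSS, an agent toxic to the colon epithelium, was drunk at 3% for 5 days and replaced by plain water for 14 days. Total RNA of minced, homogenized colon was hybridized to 1 array per sample, with 4 arrays for each genotype untreated (day 0), at day 7 and at day 15, and 6 arrays for each genotype at the tumor stage (day 63). By their labels all KO groups lack IL-17RC and all treated groups received both agents. Days 7 and 15 come before 3 such cycles could end, so only the tumor groups can have had the full course. The labels do not say how the KO was made, whether samples were littermates, or which stretch of colon was taken. In such bulk tissue, fewer cells of a type and less RNA per cell cannot be told apart.

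Stratified squamous epithelium covers the skin, the oral cavity, the esophagus and, in mice, the forestomach and the anal canal, and meets the simple columnar epithelium of the colon at the anorectal junction. Its basal cells carry the keratin pair Krt5 and Krt14 together with the transcription factor p63, and cells that leave the basal layer switch to other pairs, Krt4 with Krt13 in moist mucosa and Krt1 with Krt10 in skin. The outermost cells build a cornified envelope from proteins such as loricrin and the small proline-rich (Sprr) proteins.

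The promoters of 3 members are shown because their genes were high together on some arrays and apart on others. They are the 250 bases before the annotated start, 5′ to 3′, from RefSeq on GRCm38.p6, where 5 of the 9 measured members had an entry. Capitals mark matches to the p53 and p63 family core or to TATAAA, searched on both strands. The core was read as a C and a G with any 2 bases between them, then 6 bases of any kind, then the same arrangement of C and G again.
Krt5 promoter, chr15:101712906-101713155, minus strand: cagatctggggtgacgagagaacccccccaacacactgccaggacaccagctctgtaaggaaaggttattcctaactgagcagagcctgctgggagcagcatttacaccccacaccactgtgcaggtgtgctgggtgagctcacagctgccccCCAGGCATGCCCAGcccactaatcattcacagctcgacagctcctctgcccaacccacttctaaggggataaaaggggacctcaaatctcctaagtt
Krt13 promoter, chr11:100121567-100121816, minus strand: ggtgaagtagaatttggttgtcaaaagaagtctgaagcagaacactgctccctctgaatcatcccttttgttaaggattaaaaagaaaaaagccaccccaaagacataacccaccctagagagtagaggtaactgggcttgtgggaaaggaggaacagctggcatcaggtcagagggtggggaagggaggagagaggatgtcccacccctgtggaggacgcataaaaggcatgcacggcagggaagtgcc
Sprr3 promoter, chr3:92458721-92458970, minus strand: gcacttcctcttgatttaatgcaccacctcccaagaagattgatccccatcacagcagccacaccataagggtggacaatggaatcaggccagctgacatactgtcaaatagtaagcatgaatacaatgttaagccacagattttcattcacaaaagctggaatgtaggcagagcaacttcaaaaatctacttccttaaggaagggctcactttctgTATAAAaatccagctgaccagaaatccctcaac
The Krt5 promoter held 1 match to the p53 and p63 family core, starting 97 bases before the start. The same core occurred in 63.5% of the 32851 promoters of this length. The Sprr3 promoter held TATAAA 33 bases before its start, a sequence found in 12.4% of those promoters. The Krt13 promoter shown held neither. The AP-2 motif GCCNNNGGC was in none of the member promoters and in 13.7% of all. These matches describe letters in the windows and say nothing of binding.

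The genotype was checked first. Il17rc intensity was 76 to 515 on the 18 WT arrays and 7 to 15 on 16 of the 18 KO arrays, but 331 on the array labelled KO day 7 replicate 1 and 44 on the array labelled KO day 7 replicate 2. The first of these values lay within the WT range and the second between the genotypes, so both arrays go against their label, and both were also among the arrays with high squamous genes. Array medians were 14 to 16 on the deposited scale, correlations between arrays on the log2 scale were 0.913 to 0.995, and 0 pairs were identical. Krt14, Krt4, Krt6a and Mal had further probe sets that followed the chosen one over the 36 arrays (r of 0.985 to 0.995). Other probe sets for Krt13 and Trp63 were dim. Krt6a and Krt6b are close paralogs that a probe set may not separate.

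Krt5, the basal partner of Krt14, was above 100 on 7 of the 36 arrays. Its intensity was 6043, 16, 18 and 2199 on WT untreated replicates 1 to 4, and 20, 22, 21 and 20 on the 4 KO untreated arrays. At day 7 it was 817, 17, 18 and 205 in WT and 4230, 1006, 19 and 19 in KO. The group means therefore hid arrays of 2 kinds, with WT untreated at 2069 ± 2842 (SD, n = 4) and KO day 7 at 1319 ± 1996 (SD, n = 4). All 8 arrays of day 15 lay between 16 and 21. Among the 6 WT tumors Krt5 was lowest at 16, with a median of 17.5 and a highest value of 46, and among the 6 KO tumors it was lowest at 16, with a median of 18 and a highest value of 436. The array nearest above the limit of 100 was WT day 7 replicate 4 at 205, and the nearest below it was KO tumor replicate 1 at 96, followed by WT tumor replicate 4 at 46. The 7 arrays were thus 2 of 4 WT untreated, 2 of 4 WT day 7, 2 of 4 labelled KO day 7 and 1 of 6 KO tumors.

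The arrays high in Krt5 did not follow 1 genotype or stage. Each sample title carries a code of a letter and a number, whose meaning the labels do not give. Of the arrays with Krt5 above 100, 3 were among the 4 arrays with code number 5, 2 among 8 with number 2, 2 among 8 with number 3, and 0 among 8 with number 1 and 8 with number 4. By letter they were spread over 6 of 8 letters, at most 2 per letter. Whether the code marks a processing order was not tested.

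**Figure D1:**
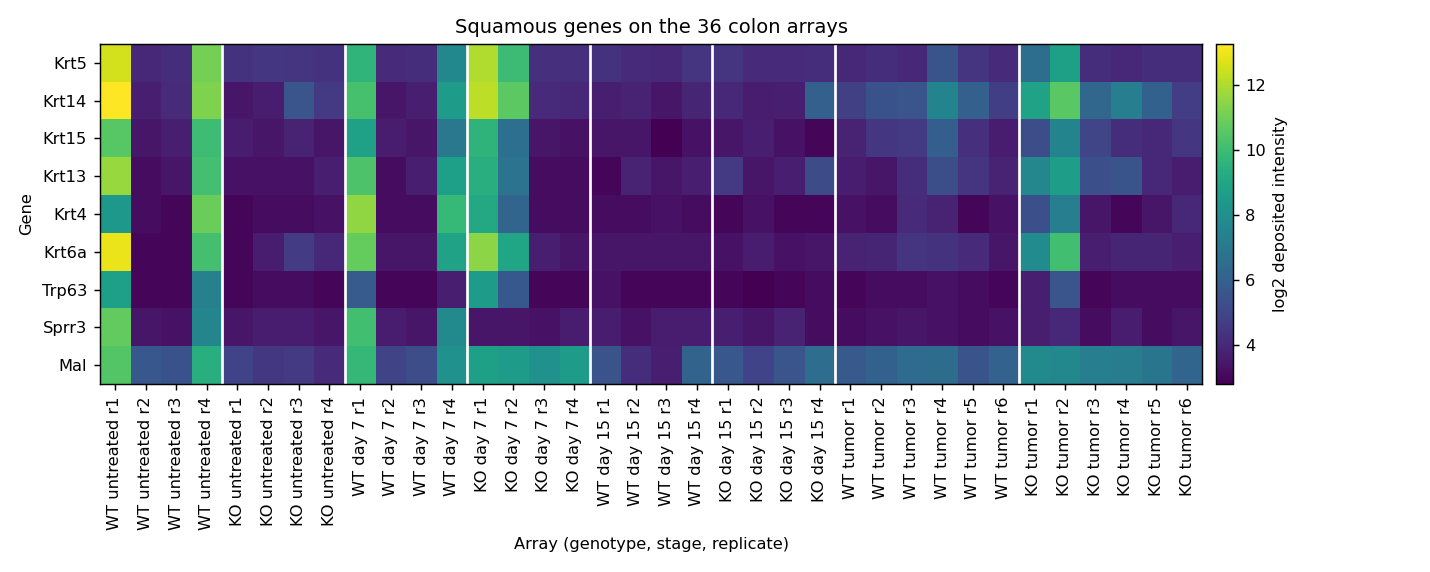
Heat map of the log2 deposited intensity (color) of the 9 measured squamous genes (vertical axis) on each of the 36 arrays (horizontal axis), with white lines between the 8 groups. Bright columns mark replicates 1 and 4 of WT untreated and of WT day 7, replicates 1 and 2 of the arrays labelled KO day 7, and replicate 2 of the KO tumors, whereas Mal is raised on all 4 KO day 7 arrays.

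Krt14, the type I keratin of basal cells, was 9933, 13, 17 and 2423 on the WT untreated arrays and 11, 12, 48 and 24 on the KO untreated arrays. At day 7 it was 1198, 11, 13 and 389 in WT and 4853, 1587, 17 and 16 in KO. The same 6 arrays as for Krt5 stood apart. Krt14 was 11 to 15 on WT day 15 arrays, and 16, 12, 13 and 64 on KO day 15 arrays. In tumors it differed from Krt5 in that intermediate values were common, with a lowest value of 27, a median of 45.5 and a highest value of 183 in WT, and 26, 116 and 1534 in KO. The WT and KO tumor ranges overlapped.

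Krt15, a keratin of basal cells that lies with Krt14 and Krt13 in the type I keratin cluster, was 1504, 11, 13 and 1037 on the WT untreated arrays. It was 444, 12, 11 and 129 on WT day 7 arrays and 777, 100, 11 and 10 on arrays labelled KO day 7. Trp63 encodes p63, which maintains the basal layer. Its intensity was 423, 8, 8 and 164 on WT untreated arrays, 57, 8, 8 and 13 on WT day 7 arrays, and 381, 52, 8 and 8 on arrays labelled KO day 7. On the 29 arrays with Krt5 at most 100, Trp63 was 7 to 13, under the array medians, and the highest of these values was on KO tumor replicate 1.

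The keratins of suprabasal mucosa ranked the arrays differently. Krt4, the type II keratin of non-cornified mucosa, was 334, 9, 8 and 1950 on WT untreated arrays and 2967, 9, 9 and 901 on WT day 7 arrays. On arrays labelled KO day 7 it was 563, 74, 9 and 9. Krt4 was thus highest on WT day 7 replicate 1, while the other 8 measured members were highest on WT untreated replicate 1. Krt13, its partner, was 3252, 9, 11 and 1149 on WT untreated arrays, 1302, 9, 13 and 420 on WT day 7 arrays, and 679, 111, 9 and 9 on arrays labelled KO day 7. In KO tumors Krt13 was 202, 408, 41, 46, 16 and 12, and in WT tumors it was 12, 11, 18, 40, 21 and 14.

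Sprr3, a cornified envelope precursor of mucosal squamous epithelium, parted from the basal genes. It was 1726, 11, 10 and 192 on WT untreated arrays and 1113, 12, 11 and 228 on WT day 7 arrays. On arrays labelled KO day 7 it was 11, 11, 10 and 12, and in KO tumors it was 9 to 16. On the array labelled KO day 7 replicate 1, Krt5 stood at 70.0% and Trp63 at 90.1% of their values on WT untreated replicate 1, and Sprr3 at 0.637%. On WT day 7 replicate 1 the order was turned, with Sprr3 at 64.5% and Krt5 and Trp63 at 13.5% each. Krt4 also parted from the basal genes, at 888% of its value in WT untreated replicate 1 on WT day 7 replicate 1 and at 584% on WT untreated replicate 4. The arrays high in Krt5 therefore differed in which squamous genes they held as well as in how much.

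**Figure D2:**
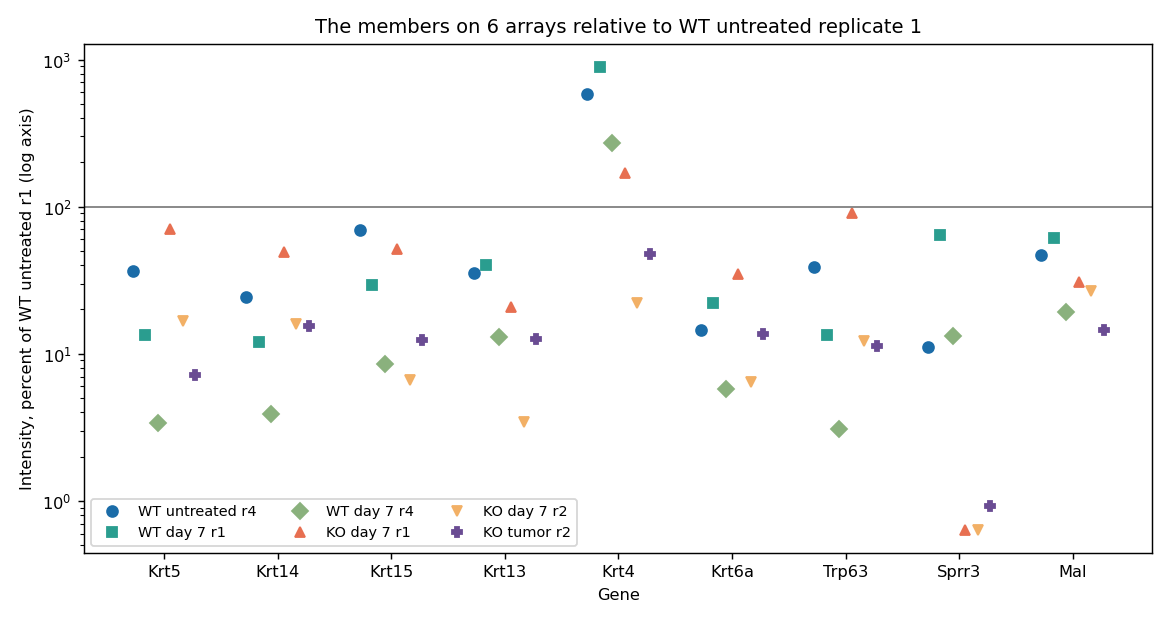
Intensity of each measured member (horizontal axis) as a percent of its own value on WT untreated replicate 1 (vertical log axis; the grey line is 100%), with 1 marker for each of the other 6 arrays with Krt5 above 100. Krt4 lies above the line on 4 arrays, and Sprr3 lies below 1% on 3 arrays, KO tumor replicate 2 and both labelled KO day 7.

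Krt6a, a keratin induced in stressed and proliferating squamous cells, was 8061, 8, 8 and 1177 on WT untreated arrays and 8, 12, 25 and 16 on KO untreated arrays. It was 1774, 11, 11 and 464 on WT day 7 arrays and 2814, 515, 13 and 11 on arrays labelled KO day 7. Some other genes were also raised on KO untreated replicates 3 and 4, but most members were not. Krt6b, the paralog of Krt6a, was 7, 6, 235 and 102 on KO untreated replicates 1 to 4. Krt14 was highest on replicate 3 (48) and replicate 4 (24), and Krt5 did not stand out. On the KO untreated arrays Krt15 was 11 to 14, Krt13 10 to 13, Krt4 8 to 10, Trp63 8 to 9 and Sprr3 11 to 12. Mal was highest on replicate 1 (30).

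Mal, a membrane protein of apical sorting that is also made outside squamous epithelium, was also high on arrays where the other members were not. It was 1428, 50, 44 and 671 on WT untreated arrays and 30, 23, 24 and 17 on KO untreated arrays. At day 7 it was 877, 31, 39 and 275 in WT, and 437, 382, 274 and 379 on arrays labelled KO day 7. All 4 KO day 7 arrays were therefore above all 4 KO untreated arrays, including replicates 3 and 4, on which Krt5 was 19 and Il17rc was 12 and 10. On KO day 15 arrays Mal was 50, 30, 47 and 95. In tumors its lowest, median and highest values were 46, 67.5 and 91 in WT and 75, 150.5 and 222 in KO.

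Over the 36 arrays the members' log2 levels correlated pairwise with r of 0.631 (Krt14 and Sprr3) to 0.974 (Krt5 and Krt6a). These values describe the same 36 arrays, 7 of which carry most of the range. Within groups, the spread of the members was among the widest of the table, which follows from their choice for wide differences between arrays. The pooled within-group SD of log2 intensity was 2.78 for Krt6a and 2.75 for Krt14, ranks 3 and 4 of 17097 genes, 2.42 for Krt5 (rank 10) and 1.30 for Mal (rank 104), against a median of 0.22 over all genes.

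The genes most like the members were found by Pearson r with the members' mean log2 level over the 36 arrays, as a description. The 15 closest were Lgals7 (0.99), Dmkn (0.97), Calml3 (0.96), Aqp3 (0.95), Krt10 (0.94), Sprr2d (0.93), Krt6b (0.93), Spink5 (0.92), Rptn (0.92), Cysrt1 (0.91), Gm94 (0.91), Ltf (0.91), Krtdap (0.91), Tgm1 (0.91) and Col17a1 (0.91). Lgals7 encodes galectin-7 of stratified epithelia, Spink5 a protease inhibitor of the epidermis, Tgm1 the transglutaminase that links the cornified envelope, and Col17a1 a hemidesmosome collagen of basal cells. Lgals7 was 4634, 9, 12 and 999 on WT untreated arrays. Ranked by Spearman's rho, 2 of these 15 stayed among the 15 closest, and 9 did when Krt5 alone was the reference, so the order of names depends on the measure.

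Of the fixed list of other squamous genes, 20 of 51 measured genes had r of 0.8 or more, against 63 of all 17097 genes (0.368%), 8 of which were members. The cornified envelope list had 6 of 14, the basal attachment list 2 of 9 and the desmosome list 2 of 9. The epidermal and hair list had 1 of 11, which was Krt10. Lists for sebaceous gland, urothelium, skeletal muscle, posterior Hox genes, colonocytes, goblet cells and smooth muscle had 0 such genes. The neutrophil list had 1 of 11, which was Ltf, lactoferrin, a protein of neutrophil granules and of secretory epithelia.

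The label of squamous tissue was checked on genes outside the members. Krt71, a hair follicle keratin, was at most 13 on every array, and the urothelial gene Upk1b at most 23. Krt1, the suprabasal keratin of skin, was 5730 on WT untreated replicate 1 and 20 on replicate 4, 895 and 285 on WT day 7 replicates 1 and 4, and 45 and 22 on the arrays labelled KO day 7 replicates 1 and 2. Its skin partner Krt10 was 6530 and 1836, 3068 and 1229, and 4679 and 1353 on the same arrays. Krt10 was thus high also where Krt1 was near its median of 19 over all arrays. Lor, the cornified envelope protein loricrin, was 426 and 34, 233 and 56, and 11 and 11 on these arrays in the same order.

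WT untreated replicate 1 also held genes that were low elsewhere. Dsg1a, a desmosomal cadherin of upper skin layers, was 1192 on that array and 6 to 8 on the other 35. Krt16, a stress keratin, was 7993 there and 513 on the array labelled KO day 7 replicate 1, the next highest. Sprr1b was 2171 there and 128 on WT day 7 replicate 1. KO tumor replicate 1, just under the Krt5 limit, had Krt1 at 120 and Lor at 101, where KO tumor replicate 2, with Krt5 at 436, had 22 and 13. The arrays high in Krt5 thus differed in their skin-type genes, and the place the squamous RNA came from was not measured. Hoxb13, a gene of the hindgut end of the body axis, was 509 to 4233 over the 36 arrays, also on those without squamous genes.

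**Figure D3:**
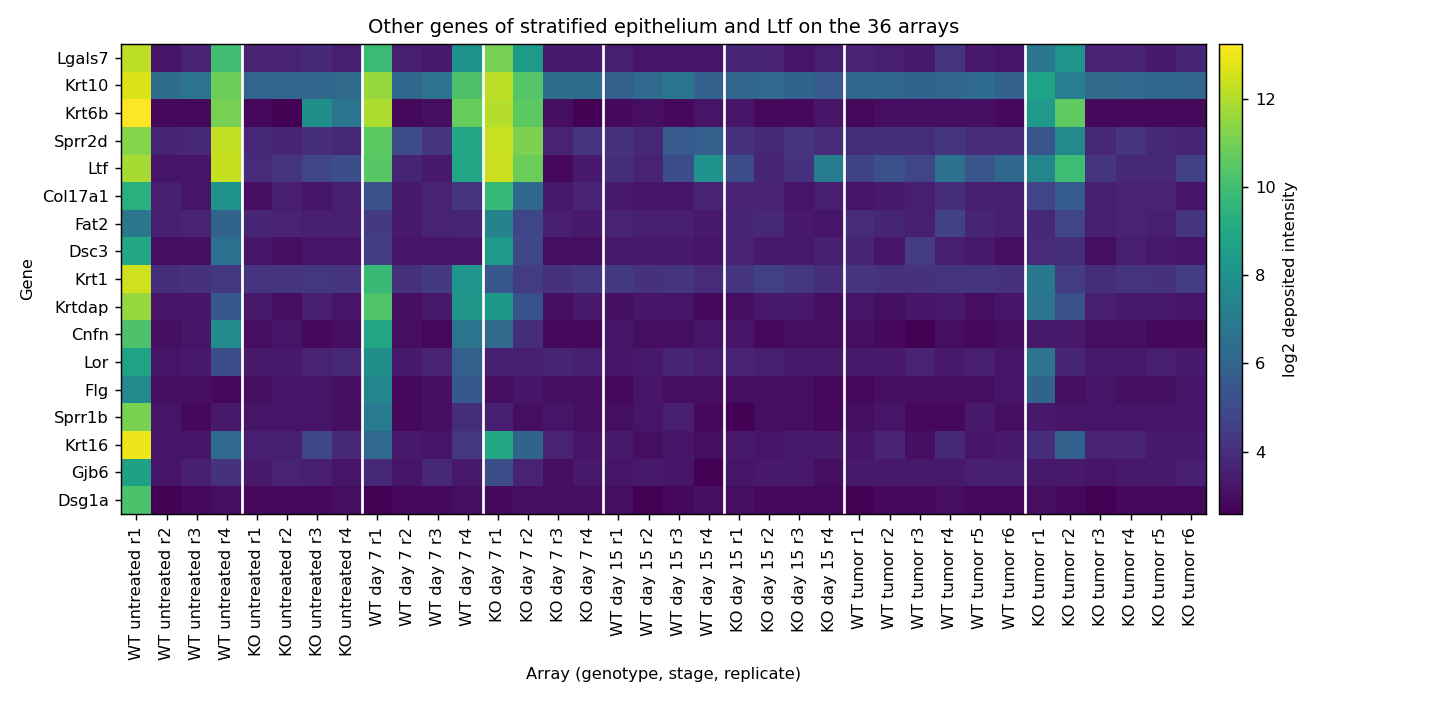
Heat map of log2 deposited intensity (color) of 16 further genes of stratified epithelium and Ltf (vertical axis) on the 36 arrays (horizontal axis, white lines between groups). Krt10, Krt6b and Lgals7 follow the members, whereas Dsg1a is high on WT untreated replicate 1 alone and Krt1, Lor and Flg are low on the arrays labelled KO day 7 replicates 1 and 2.

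Some genes known from neutrophils were high on the same arrays. Ltf was 3731 and 5048 on WT untreated replicates 1 and 4 and 9 on both other WT untreated arrays. S100a8, a calprotectin subunit made by neutrophils and by activated squamous cells, was 35 and 1101 on these 2 arrays, 220 and 52 on WT day 7 replicates 1 and 4, and 1980 and 421 on the arrays labelled KO day 7 replicates 1 and 2. On the other 10 arrays of the untreated and day 7 groups S100a8 was 7 to 14. S100a9, the other calprotectin subunit, was 165 and 2426, 918 and 277, and 3279 and 806 on those arrays in the same order, and 20 to 59 on the other 10. The summed intensity of the 8 measured neutrophil genes without Ltf, S100a8 and S100a9 was 84 to 394 in WT untreated, 87 to 130 in KO untreated, 86 to 103 in WT day 7 and 86 to 230 in KO day 7, and reached 8251 at KO day 15. The 394 was on WT untreated replicate 4 and the 230 on the array labelled KO day 7 replicate 1, where S100a8 and S100a9 were also high. The sum was 100 on WT untreated replicate 1, 93 and 86 on WT day 7 replicates 1 and 4, and 118 on the array labelled KO day 7 replicate 2. The part of neutrophils in the Ltf, S100a8 and S100a9 values was not tested. The summed colonocyte genes were 38979 to 55070 on WT untreated arrays, lowest on replicate 1.

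Group comparisons were fitted with limma over all 17097 genes and 36 arrays on quantile-normalized log2(intensity + 1), a scale that understates changes of dim genes, and a gene was called at a Benjamini-Hochberg adjusted p under 0.05. The members' differences are descriptions, since the members were chosen on these arrays. Comparisons that share untreated arrays share their squamous values too. Leaving out arrays by their Krt5 narrows the errors of members that track Krt5, so adjusted p from those fits are descriptions too.

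In untreated colon, all 9 members had lower mean log2 levels in KO than in WT, from -2.36 (Trp63) to -3.75 (Krt14), and 1 of 9, Mal, was called. Of all genes 2.28% were called, and 0.485% were called lower. Mal differed by -3.13 ± 0.81 (log2, SE; adjusted p = 0.0297, limma), and Krt5 differed by -3.54 ± 1.53 (adjusted p = 0.297). The median member difference was -3.31, and 0.08 without the 7 arrays with Krt5 above 100, which leaves 2 WT arrays. Without those arrays the Mal difference was -0.94 ± 0.45 (adjusted p = 0.503). The Mal call was also lost without any 1 of the 4 KO untreated arrays (adjusted p = 0.0507 to 0.0914), without WT untreated replicate 1 (0.185) and without WT untreated replicate 4 (0.154).

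At day 7, KO minus WT called 0 of 9 members, where 0.298% of all genes were called. Both groups held squamous arrays, and the median member difference was 0.26. The members did not share a sign, with Sprr3 at -2.76 ± 1.05 (adjusted p = 0.257), Krt4 at -1.47 ± 1.47 and Krt5 at 1.17 ± 1.53. Without the 7 arrays, 2 arrays remained in each group, the median was 0.01 and 1 of 9 members was called, Mal, which was higher in KO by 3.02 ± 0.52 (adjusted p = 0.00199, limma). Of all genes 2.42% were then called. With all arrays Mal differed by 1.39 ± 0.81 (adjusted p = 0.555). On those 2 KO arrays Il17rc was 12 and 10.

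In KO colon, Mal rose from untreated to day 7 by 3.92 ± 0.81 (log2, SE; adjusted p = 0.00123, limma) and was the 1 member called, where 12.2% of all genes were called and 5.64% were called higher. Leaving out any 1 of the 8 arrays gave 3.77 to 4.06 with adjusted p of 0.00291 to 0.00586. Without the 7 arrays, which include both arrays whose Il17rc goes against their label, the rise was 3.73 ± 0.45. With the members' mean level as a covariate it was 2.61 (adjusted p = 0.000250, limma). That mean level includes Mal itself, so the value with the covariate is a description. Muscle genes moved with Mal on some of these arrays. The summed intensity of 8 smooth muscle genes was 18052 to 19406 on the KO untreated arrays and 19756, 31963, 37065 and 31685 on the arrays labelled KO day 7, and that of 13 skeletal muscle genes was 222 to 315 and then 197, 448, 565 and 421. In this comparison all 8 smooth muscle genes had positive differences (median 0.82) and 1 was called. Their part in the Mal value was not tested. On replicate 1 both sums were near those of untreated colon and Mal was 437. That array also had Krt5 at 4230 and Il17rc at 331. On replicates 3 and 4, where Krt5 was 19, Mal was 274 and 379. Krt5 differed by 3.18 ± 1.53 (adjusted p = 0.191) with all arrays and by -0.18 ± 0.41 without the squamous arrays, and Trp63 by 1.95 ± 0.94 and -0.08 ± 0.13. Sprr3 differed by -0.09 ± 1.05 and -0.08 ± 0.14.

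In WT colon, day 7 minus untreated called 0 of 9 members (1.66% of all genes), and both groups had 2 squamous arrays each. Krt5 differed by -1.53 ± 1.53 and Krt4 by 0.54 ± 1.47. By day 15 no WT array held squamous genes, and the members differed from untreated by -2.37 (Trp63) to -4.37 (Krt14). Mal was the 1 member called, at -2.90 ± 0.81 (adjusted p = 0.0401, limma), where 3.38% of all genes were called and 1.28% were called lower. The Mal call was lost without WT untreated replicate 1 (adjusted p = 0.186) or 4 (0.146), and without WT day 15 replicate 1 (0.0616), 2 (0.0985) or 3 (0.0961). It was also lost with a pseudocount of 16 (0.0564), and the difference was -0.71 ± 0.45 without the 7 arrays.

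The comparison of WT tumors with untreated WT colon called 2 of 9 members, both lower, where 22.8% of all genes were called and 10.2% were called lower. Trp63 differed by -2.31 ± 0.85 (adjusted p = 0.0478, limma) and Sprr3 by -2.91 ± 0.96 (adjusted p = 0.0255). Without the 7 arrays Trp63 differed by 0.11 ± 0.12 and Sprr3 by -0.10 ± 0.13, and 0 members were called, where 18.2% of all genes were. Krt6a went from -3.29 ± 1.63 with all arrays to 0.93 ± 0.61 without them (adjusted p = 0.148 and 0.340), and Krt14 from -2.45 ± 1.59 with all arrays to 1.68 ± 0.73 without them (adjusted p = 0.293 and 0.117). Without WT untreated replicate 1 or replicate 4 alone, 0 members were called, without replicate 2 there were 6, and without replicate 3 there were 8. Without any 1 tumor the count was 1, since Trp63 was then not called (adjusted p = 0.0623 to 0.0708), nor was it with the replicate number as a block (0.062).

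In KO tumors minus untreated KO colon, where no untreated array had Krt5 above 100, 1 of 9 members was called and 20.8% of all genes were, 10.8% higher and 9.92% lower. Mal rose by 2.54 ± 0.74 (log2, SE; adjusted p = 0.0123, limma), and by 2.45 ± 0.35 without the 7 arrays, which include KO tumor replicate 2. With the code letter as a block Mal was not called (2.27, adjusted p = 0.0702). The other members had wide errors with all arrays, such as Krt14 at 2.89 ± 1.59 (adjusted p = 0.223). With the 7 arrays left out of the fit, 4 of 9 members were called higher in KO tumors, and 10.2% of all genes were. These were Mal, Krt14 (2.24 ± 0.60, adjusted p = 0.00894), Krt13 (1.73 ± 0.49, 0.0129) and Krt15 (0.92 ± 0.28, 0.0227). When KO tumor replicate 1 and WT tumor replicate 4 were left out as well, the values were 1.69 for Krt14 (adjusted p = 0.0124), 1.15 for Krt13 (0.0150) and 0.80 for Krt15 (0.00530). Arrays were left out by their Krt5, with which Krt14, Krt13 and Krt15 correlated over the 36 arrays (r of 0.931, 0.930 and 0.961). The smaller errors, for Krt14 0.60 in place of 1.59, and the calls follow in part from that choice and are descriptions. Krt5 stayed at 0.19 ± 0.32 and Trp63 at 0.15 ± 0.10 without the 7 arrays, and neither was called. Between KO and WT tumors 0 of 9 members were called, where 0.0526% of all genes were. The members were 0.21 (Sprr3) to 1.62 (Krt13) higher in KO, with Mal at 1.11 ± 0.66.

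At day 15, KO minus WT called 0 of 9 members (0.222% of all genes) and KO day 15 minus untreated 0 of 9 (0.813% of all genes), and none of these arrays had Krt5 above 100. The genotype difference in the change from untreated to day 7 called Mal alone among the members, at 4.52 ± 1.15 (adjusted p = 0.0274, limma; 2.37% of all genes called). It was 3.96 ± 0.69 (adjusted p = 0.00226) without the 7 arrays. With all but 1 of the 16 arrays it was 3.60 to 5.42, and it was no longer called without WT untreated replicate 1 or 4, WT day 7 replicate 2 or 3, KO untreated replicate 4 or the array labelled KO day 7 replicate 2. The genotype difference in the change to tumors also called Mal alone, at 4.25 ± 1.05 (adjusted p = 0.0411; 0.784% of all genes called). That value was 1.96 ± 0.55 (adjusted p = 0.154) without the 7 arrays, and leaving out any 1 of 20 arrays gave 3.33 to 4.98, with the call lost in 16 of the 20.

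**Figure D4:**
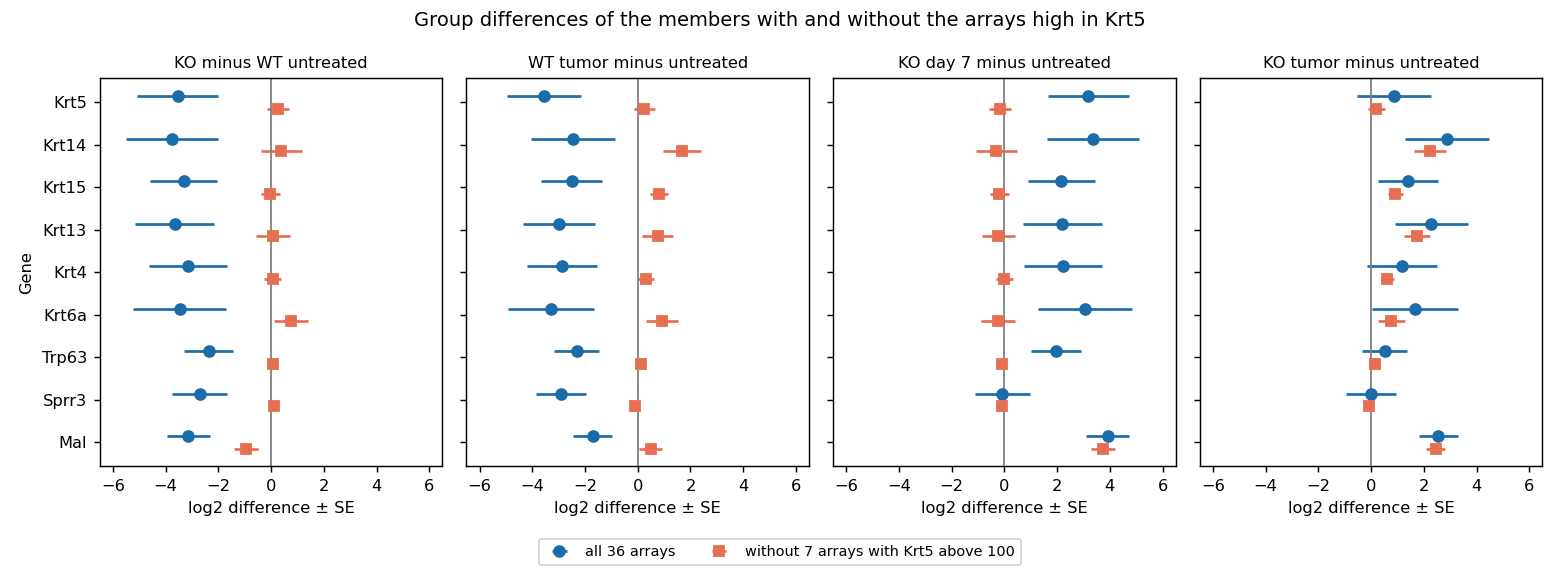
Difference of each measured member (vertical axis) in 4 comparisons on the log2 scale (horizontal axis), with all 36 arrays (circles) and without the 7 arrays with Krt5 above 100 (squares); bars are limma standard errors. Most members move toward 0 when the arrays are left out, whereas Mal keeps its rise in KO day 7 (3.92 and 3.73) and KO tumors (2.54 and 2.45).

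Genes that track the members were chosen by their r over the same 36 arrays, so their dependence on the 7 arrays follows from the choice and is a description. Of the 55 other genes with r of 0.8 or more, 25 were called in WT tumors minus untreated (22.8% of all genes), and 7 without the 7 arrays (18.2% of all genes). In KO tumors minus untreated the count went the other way, from 0 (20.8% of all genes) to 8 (19.8% of all genes). Krt10 differed by -3.04 ± 1.04 (adjusted p = 0.0320) and Cnfn, the cornified envelope protein cornifelin, by -3.08 ± 0.96 (0.0185). Without the 7 arrays Krt10 differed by -0.41 and Cnfn by -0.20, and neither was called (adjusted p = 0.593 and 0.235). Sprr2f, a small proline-rich gene, differed by -3.68 ± 1.34 (adjusted p = 0.0457) with all arrays and by 0.12 without the 7. Crabp2 and Calml3 differed by -2.84 and -2.70, and by -0.05 and -0.12 without the 7. In WT day 15 minus untreated 1 of the 55 was called, Tmem40 at -2.12 ± 0.59 (adjusted p = 0.0392). In the fixed list of other squamous genes, 13 of 51 were called lower and 0 higher in WT tumors (10.2% of all genes were called lower), with a median of -1.33 against 0.02 over all genes. Without the 7 arrays 3 were lower and 6 higher, with a median of 0.05. In KO day 7 minus untreated 2 of 51 were called higher and 0 lower (median 0.71), a smaller share than the 5.64% of all genes called higher. In KO tumors minus untreated 1 was called higher and 4 lower (median 0.17), where 10.8% and 9.92% of all genes were. Without the 7 arrays 6 were higher and 6 lower (median 0.07), where 10.2% and 9.63% of all genes were.

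Leaving out the arrays with squamous genes also changed counts over all genes. Between KO and WT at day 7, 51 genes were called with all arrays and 413 without the 7, and 45 were shared. That count was 529 without WT day 7 replicate 1 alone and 158 without the array labelled KO day 7 replicate 1 alone, and 13 to 21 without any 1 of the other 6. In WT day 7 minus untreated it was 283 and 66, with 60 shared, and 186 without WT untreated replicate 1 and 187 without WT day 7 replicate 4. In WT day 15 minus untreated it was 578 and 265, with 200 shared, and 310 and 374 without WT day 15 replicates 1 and 2. In untreated KO minus WT it was 389 and 257, with 194 shared. The fit without the 7 arrays has fewer arrays per group and a smaller spread. It also leaves out the arrays labelled KO day 7 replicates 1 and 2, whose Il17rc goes against their label. The separate parts of these and of the squamous genes in the counts cannot be told apart here and were not tested. With the members' mean level as a covariate instead, over all 36 arrays, KO minus WT at day 7 called 122 genes, including all 51 of the original ones.

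**Figure D5:**
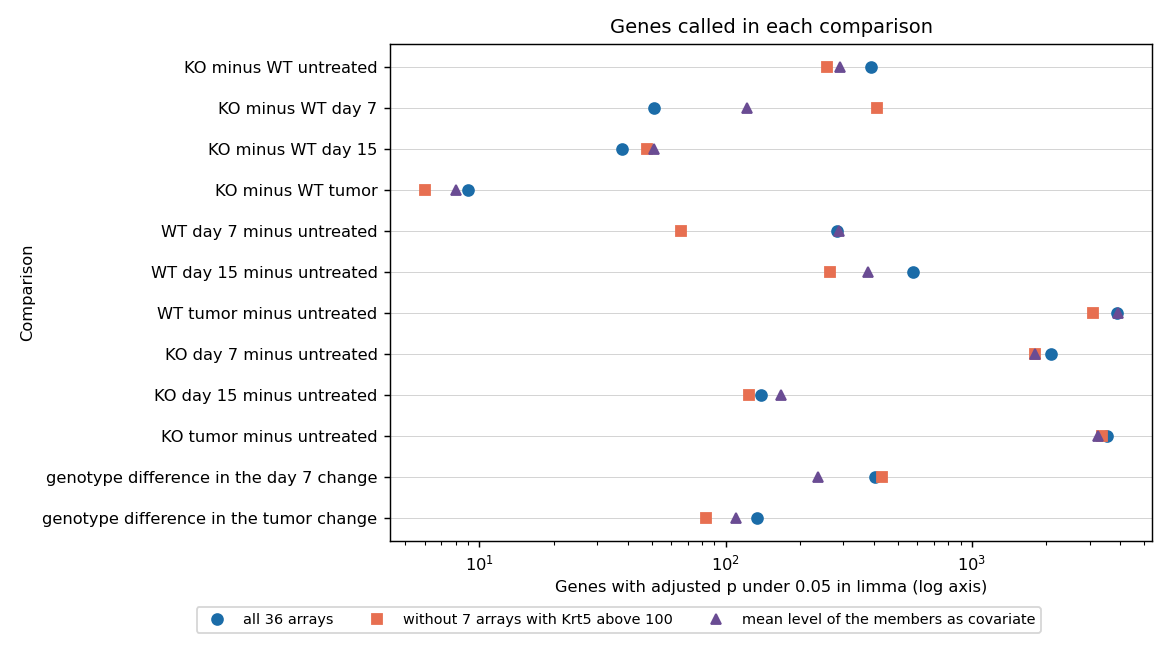
Number of genes called by limma at an adjusted p under 0.05 (horizontal log axis) in 12 comparisons (vertical axis), with all 36 arrays (circles), without the 7 arrays with Krt5 above 100 (squares) and with the mean level of the members as a covariate (triangles). KO minus WT at day 7 goes from 51 to 413 genes without the 7 arrays, and WT day 7 minus untreated from 283 to 66. The 7 include both arrays labelled KO day 7 whose Il17rc goes against their label.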

How the data were processed

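Colon RNA of 36 samples was measured on Affymetrix HT MG-430 PM arrays. The authors deposited linear intensity per probe set, as whole numbers from 4 to 14185. How they corrected background and normalized is not given in the sources used here. Of 45037 probe sets, 28898 had 1 gene symbol in the platform annotation, 551 had several and 15588 none. Only the first kind was kept, with the brightest probe set per gene (17097 genes). Values were quantile normalized as log2(intensity + 1) and fitted in limma 3.58.1 (R 4.3.3) with 8 group means, an intensity trend and Benjamini-Hochberg adjustment within each of 12 comparisons. The number of arrays limits the precision. Nothing in the labels says that arrays are separate animals, so p-values cover the spread among arrays only, which may be technical.

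The members, gene lists, motifs and tests were chosen with earlier results of these data known. Named genes are the members, the 15 closest genes by r, up to 6 per marker list by their gap between highest and median array, up to 5 called genes with r of 0.8 or more per comparison, and Il17rc. Alternatives were a pseudocount of 16, median centring, no genes with a mean under 16, blocks for replicate number and title code, the members' level as covariate, and leaving out single arrays or those with Krt5 above 100. Leaving out Krt5 above 40, and the TATAAA search, were added after seeing the data.

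The pairing of equal replicate numbers was checked by residual correlations. Every pair passed 0.1 in 2 comparisons, WT day 7 minus untreated with r of 0.164 to 0.398 and KO minus WT day 15 with r of 0.174 to 0.801. The labels do not say that equal numbers link samples. WT untreated and WT day 7 also both had their squamous arrays at replicates 1 and 4, so these correlations cannot show a pairing. The differences reported come from the fit without pairs, and the replicate block was an alternative. On values simulated for untreated KO minus WT over 17097 genes, limma recovered 81% of changes of 1 log2 unit and 96% of changes of 2, with 5.35% false calls. These rates are over all genes and do not hold for the members. Their pooled within-group SD was 1.30 (Mal) to 2.78 (Krt6a), against a median of 0.22 over all genes.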

Additional observations from a re-analysis of the deposited data

Results flagged for a closer look

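A gap test was run on linear intensities within each group. For normally distributed values, chance passes it in about 1 in 20 groups. The members were chosen because they differed widely between arrays, so flags for them follow in part from that choice and are descriptions. By this test some single arrays stood far from the other arrays of their group. In KO tumors this was replicate 2 for Krt5 (436), Krt14 (1534), Krt15 (186), Krt4 (158), Krt6a (1098) and Trp63 (48). In WT tumors it was replicate 4 for Krt5 (46), Krt14 (183), Krt15 (61) and Krt13 (40). The array labelled KO day 7 replicate 1 stood apart for Krt15 (777), Krt13 (679), Krt4 (563), Trp63 (381) and Il17rc (331). In untreated WT colon replicate 1 stood apart for Krt6a (8061) and Sprr3 (1726) and replicate 4 for Krt4 (1950), and at day 7 WT replicate 1 for Trp63 (57). Krt14 was 64 on KO day 15 replicate 4. Il17rc was 223 on WT tumor replicate 6. Where the range of a group was a few units, near background, the same test picked Krt13 on KO untreated replicate 4 (13), Krt4 on WT day 15 replicate 3 (10) and KO day 15 replicate 2 (10), Trp63 on WT day 15 replicate 1 (10) and Sprr3 on WT day 15 replicate 2 (10).

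The change of Mal differed between the genotypes by the interaction term of the limma fit, by 4.52 (log2, adjusted p = 0.0274) from untreated to day 7 and by 4.25 (adjusted p = 0.0411) from untreated to tumors, each as KO minus WT. Leaving out single arrays lost the call in 6 of 16 fits for day 7 and in 16 of 20 for tumors. Without the arrays with Krt5 above 100 the day 7 call stayed and the tumor call was lost. Mal was chosen on these arrays, and its WT untreated values were 1428, 50, 44 and 671.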

How the results depend on the processing

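Under median centring, without dim genes and with the replicate block, all 108 differences of members moved by less than the replicate spread. No difference called with all arrays turned under these settings, and the direction of the others was not compared. Of the 108, 49 moved further without Krt5 above 100, and the same number did so without Krt5 above 40. A turn was counted only for differences called with all arrays, and 1 turned under each of these limits. Differences not called with all arrays changed sign too, such as Krt5 in untreated KO minus WT, from -3.54 to 0.28 without Krt5 above 100. With the covariate 59 moved, with the code number 16, with the code letter 9 and with a pseudocount of 16 there were 3. Trp63 in WT tumors minus untreated turned from -2.31 to 0.11 without the arrays with Krt5 above 100 and to 0.081 without those above 40, a limit chosen after seeing the data. Probe signals near background limit all dim values, since their log2 differences are compressed.

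Counts of called genes that moved were, without Krt5 above 100, untreated KO minus WT 257, day 7 KO minus WT 413, WT day 7 66, WT day 15 265 and the tumor interaction 83. Without Krt5 above 40 they were day 7 392, day 15 67 and tumor 3 for KO minus WT, WT day 7 71 and WT day 15 261. With the covariate they were day 7 122, WT day 15 379 and the day 7 interaction 237. Without dim genes day 7 KO minus WT had 102, and with median centring day 15 KO minus WT had 98. With the code number as block the counts were day 7 27, day 15 13, WT day 7 162, WT day 15 297 and KO day 15 89. With the code letter they were untreated 227, day 7 27, day 15 8, tumor 5, WT day 7 119, WT day 15 47, WT tumor 2398, KO day 7 1298 and KO day 15 44.

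Counts of called members became 0 in untreated KO minus WT without Krt5 above 100 or 40, with the covariate and with the code letter, and 1 in day 7 KO minus WT with the first 3 of these (Mal, and Sprr3 with the covariate). In WT day 15 they became 0 with a pseudocount of 16, without Krt5 above 100 or 40, with the covariate and with either code block. In WT tumors they became 0 without Krt5 above 100 and with either code block, and 1 with the covariate and without Krt5 above 40. These were other genes with the opposite sign, Krt14 at 1.18 (adjusted p = 0.0410) and Krt6a at 0.86 (0.0171). In KO tumors they became 4 without Krt5 above 100 or 40, 2 with the covariate (Mal, and Krt5 at -0.87) and 0 with the code letter. In the day 7 interaction they became 0 with the code letter, and in the tumor interaction 0 with a pseudocount of 16, without Krt5 above 100 or 40, with the covariate and with the code letter. The covariate includes each member's own level, so calls of members with it are descriptions. Of the 15 genes most like the members, 2 stayed by Spearman's rho and 9 with Krt5 alone. The cause was not tested.

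With the replicate block, day 7 KO minus WT had 27 called genes and WT tumors 1 called member, Sprr3. No other count moved past 1.5 times. In the 2 comparisons named under the processing, where residuals of equal replicate numbers correlated, the block changed no call of a member.

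Leaving out each array in turn gave these lowest and highest counts of called genes: untreated KO minus WT 265 to 415, day 7 13 to 529, day 15 5 to 121, tumor 4 to 17, WT day 7 186 to 270, WT day 15 310 to 695, WT tumor 3132 to 4137, KO day 7 1317 to 2276, KO day 15 39 to 636, KO tumor 2779 to 3545, day 7 interaction 206 to 899 and tumor interaction 103 to 168. Called members ranged from 0 to 1 in untreated KO minus WT and in both interactions, 0 to 2 in WT day 15 and 0 to 8 in WT tumors, and stayed at 1 in KO day 7 and KO tumor and at 0 in the other 5 comparisons.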
